A study of Mus musculus with 19 samples.

Results

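The JAK-STAT5 signalling pathway and its feedback inhibitors were followed through 10 genes in transferred OT-I cells, which are CD8 T cells with 1 transgenic receptor. The genes were the kinases Jak1 and Jak3, the transcription factors Stat3, Stat5a and Stat5b, the inhibitors Cish, Socs1, Socs2 and Socs3, and the kinase gene Pim1. The genes were chosen with earlier results of these data known. Their probe sets were taken by name, as every probe set that the probe table gives to 1 of these symbols alone. That gave 14 probe sets for 10 of the 8251 genes with a probe set of their own, and all 14 passed the filter on low signal. Stat3, Stat5a, Socs3 and Pim1 had 2 probe sets each, and 1 further probe set that carries the Jak3 symbol together with another gene was not used.

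Messenger RNA had been measured on 19 oligonucleotide arrays of mouse cells from lymph node or spleen. In 3 groups the cells had gone into irradiated B6 hosts, and the arrays were titled day 5 (n = 8), day 40 (n = 4) and day 115 (n = 3). In the other group they had gone into B6 hosts that were not irradiated (n = 4). The descriptions give day 6 as the day of sorting both for the arrays titled day 5 and for the unirradiated hosts, so the irradiated and unirradiated cells of that time share their stated day. All groups share the transferred cells and the host strain, and the radiation dose, host age and sex are not given in the sources used here. For 2 of the day-5 arrays (1 and 2) the description leaves the cell type out. No unirradiated hosts were analysed here at day 40 or day 115, so irradiation and time since transfer cannot be told apart there. The labels do not say which arrays came from separate animals, so p-values measure only the spread between these samples, which may be technical.

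Cytokines that use the common gamma chain, such as interleukin 7 and interleukin 15, signal through JAK1, which sits on the cytokine-specific receptor chain, and JAK3, which sits on the gamma chain. The kinases phosphorylate STAT proteins, chiefly STAT5A and STAT5B, which enter the nucleus and switch on target genes. Among these targets are Cish and the Socs genes, whose proteins act back on receptors and kinases to damp the signal, and Pim1, a serine/threonine kinase linked to growth and survival. In T-cell-poor hosts, these cytokines are known to drive the division of transferred T cells. Arrays measure the transcripts of these genes and not the phosphorylation that carries the signal.

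The promoters of 2 of the inhibitor genes are shown because they hold the letters that STAT5 is known to bind, TTCNNNGAA, a motif that reads the same on both strands. The search used RefSeq promoter windows on build GRCm38.p6, from 250 bases before to 50 bases after the start of a transcript. Windows were found for 9 of the 10 genes, without Socs2, and the motif lay in the windows of Cish and Socs3 alone among them. Of all 32851 windows of that length, 8.30% held the motif and 0.457% held 2 or more. In Cish (chr9:107296409-107296688, plus strand) it began at positions 1 and 12 counted from the transcript start, and in Socs3 (chr11:117969337-117969616, minus strand) at position -154. The sequences below run from 250 bases before to 30 bases after the start, with the motif in capitals. A match is a description of the letters and not a site of binding.
Cish: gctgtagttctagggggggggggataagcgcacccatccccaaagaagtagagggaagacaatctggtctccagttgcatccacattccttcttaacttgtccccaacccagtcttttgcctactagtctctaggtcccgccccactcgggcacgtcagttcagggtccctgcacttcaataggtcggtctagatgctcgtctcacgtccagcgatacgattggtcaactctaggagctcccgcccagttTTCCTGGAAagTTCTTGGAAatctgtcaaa
Socs3: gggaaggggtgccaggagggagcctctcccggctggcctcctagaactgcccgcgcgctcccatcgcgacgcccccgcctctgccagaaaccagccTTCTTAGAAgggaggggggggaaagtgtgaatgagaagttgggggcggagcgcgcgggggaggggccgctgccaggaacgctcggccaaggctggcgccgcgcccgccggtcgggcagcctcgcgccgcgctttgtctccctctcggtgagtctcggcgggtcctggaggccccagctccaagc

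Defining CD8 T cell transcripts were present on every array. Cd8a, a chain of the CD8 co-receptor, lay between 1851 and 3906 at day 5 and between 2316 and 2888 in unirradiated hosts. The arrays fell into 2 clusters that cut across the groups. Cluster 1 was made up of 3 arrays from day 5 (1 to 3), 2 from day 40 (1 and 2) and the 3 from day 115. The remaining 5 of day 5, 2 of day 40 and the 4 from unirradiated hosts formed cluster 2. Arrays of 1 group correlated with a median Pearson's r of 0.974 inside a cluster and 0.884 across clusters. All day-115 arrays lay in cluster 1 and all unirradiated arrays in cluster 2. Values are therefore given with the groups alone and with the cluster as an additive term, and inside a cluster where it holds both groups. No cluster holds both day-115 and unirradiated arrays. For every gene, a value with the term in that comparison assumes the cluster difference seen at day 5 and day 40. These arrays cannot show whether it holds at day 115.

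Sums of CD8 T cell, B cell, plasma cell and erythroid markers at day 115 lay above those of unirradiated hosts. In that comparison 27.9% of all probe sets were called and 15.1% rose with the groups alone. The 9 tested CD8 T cell markers of 10 listed summed to 11058 to 13096 at day 115. In unirradiated hosts they summed to 8830 to 10802, and 2 of the 9 rose at day 115. The 8 tested B cell markers of 11 listed summed to 1000.3 to 1916 at day 115 and 597 to 740 in unirradiated hosts, and 3 of them rose (Blk, H2-Aa and H2-Ab1). The 4 tested plasma cell markers of 6 listed summed to 881 to 1185 at day 115 and 195 to 272 in unirradiated hosts, and 2 rose (Jchain and Txndc5). The 3 tested erythroid markers summed to 435 to 1228 at day 115 and 182 to 293 in unirradiated hosts, and 1 rose (Hba-a1). Their sum ran from 211 to 2444 at day 5 and from 330.5 to 967 at day 40, so high values were not particular to day 115. The B cell sum was also 923 to 1125 on the day-5 arrays of cluster 1 and 604 to 698 on those of cluster 2. Of the NK cell markers 1 of 4 listed was tested, Klrk1, which rose at day 115 by 0.44 ± 0.10 on the log2 scale (limma adjusted p = 0.00702). The 3 tested dendritic cell markers of 5 listed summed to 285 to 315 at day 115 and 262 to 310.2 in unirradiated hosts, and 1 rose (Itgax). Of the 4 tested stromal markers 1 fell (Col1a1). With the array cluster as a term no B cell, erythroid, NK, dendritic or stromal marker was called at day 115. The 2 plasma cell calls remained and 1 CD8 T cell marker rose, where 4.42% of all probe sets were called. Of the 6 tested myeloid markers none was called, with sums of 364 to 390 at day 115 and 354 to 377 in unirradiated hosts. No signal in the table was 0, so no defining marker was listed at 0. The part of these transcripts in the results that follow was not tested. In bulk samples, fewer cells of a type and less RNA per cell cannot be told apart. Bulk values also do not show which cells carried a transcript. The rises of Klrk1 and Itgax alone therefore do not show NK or dendritic cells.

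With the groups alone, the calls among the pathway genes against unirradiated hosts came at day 115, as did most calls of the whole array. With limma over 8695 probe sets, 5 of the 14 member probe sets rose at day 115 (Jak3, Stat3, Socs1, Socs3 and Pim1, 1 probe set each) and 0 fell, or 35.7% of the members. Over all probe sets 27.9% were called in this comparison and 15.1% rose. For 8 of the 14 the day-115 and unirradiated arrays did not overlap, as for 42.7% of all probe sets. The members' share in either direction was thus near that of all probe sets. At day 5, 0 of 14 were called, where 0.794% of all probe sets were. An unadjusted p under 0.05 was found for 3 members there, and for 13.5% of all probe sets. At day 40, 0 of 14 were called, where 1.48% of all probe sets were, and an unadjusted p under 0.05 was found for 2 members and for 15.3% of all probe sets. With the array cluster as a term, 1 member was called at day 5 (Socs2; 1.59% of all), 0 at day 40 (2.22% of all) and 1 at day 115 (Socs2; 4.42% of all).

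Between irradiated groups, 4 member probe sets rose at day 115 against day 5 (Jak3, both Stat5a probe sets and 1 of Socs3), where 13.8% of all probe sets were called and 8.22% rose. At day 40 against day 5, 0 were called (1.27% of all), and 1 had an unadjusted p under 0.05, as did 12% of all probe sets. At day 115 against day 40, 0 were called (0.092% of all), and 3 had an unadjusted p under 0.05, as did 13.5% of all probe sets. Under the cluster term 2 rose at day 115 against day 5 (14.2% of all were called), and 0 were called at day 40 against day 5 (7.43% of all) or at day 115 against day 40 (0.196% of all). The comparisons share arrays and are not independent. The median log2 difference from unirradiated hosts over the 14 probe sets was 0.23 at day 5, 0.18 at day 40 and 0.40 at day 115, and over all tested probe sets it was 0.029, 0.026 and 0.012. The members' medians with that term were 0.12, 0.08 and 0.19.

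**Figure D1:**
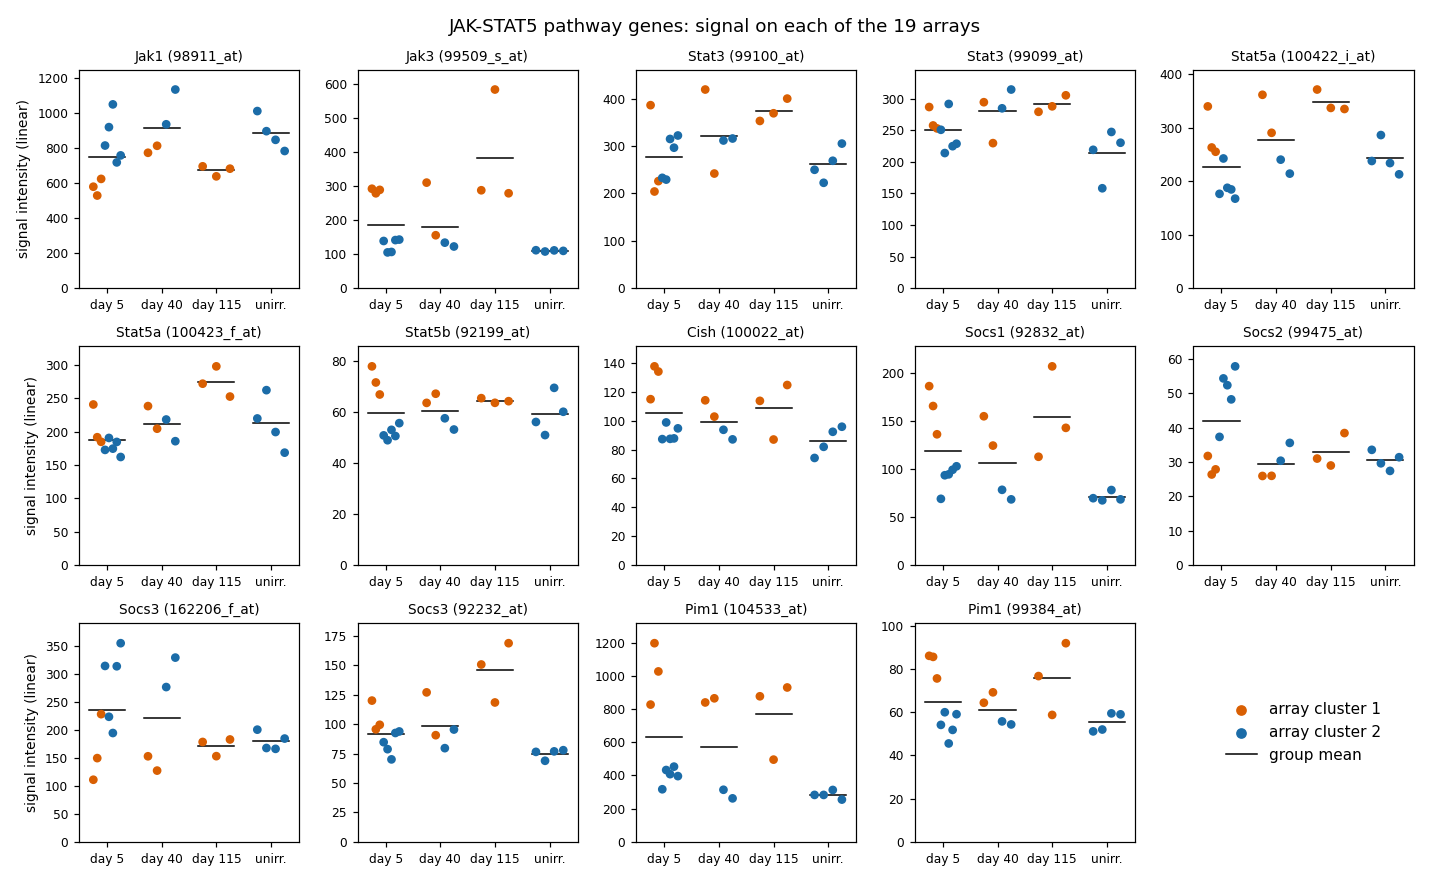
Signal intensity (linear scale, arbitrary units) of each member probe set on each of the 19 arrays, by group, with array cluster 1 in orange, array cluster 2 in blue and the group mean as a line. Jak3 and the brighter Pim1 probe set separate by cluster inside day 5, whereas Socs2 is high on the blue day-5 arrays.

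Jak1, the kinase of the cytokine-specific receptor chains, was not called in any comparison. Its signal ran from 528 to 1048 at day 5 (median 737), and was 772, 812, 935 and 1133 at day 40. It was 695, 638 and 682 at day 115, and 1010.1, 895, 846 and 782 in unirradiated hosts. All day-115 arrays lay below all unirradiated and all day-40 arrays, and 8.37% of all probe sets did not overlap between day 115 and day 40, yet the difference from unirradiated hosts was -0.38 ± 0.21 (log2 ± SE, limma adjusted p = 0.188). Adding the cluster term gave 0.10 ± 0.18 (adjusted p = 0.779).

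Jak3, the kinase of the gamma chain, rose at day 115. Its signal was 288, 585 and 279 on the day-115 arrays, and 112, 108, 111 and 109.7 on the unirradiated arrays. Every day-115 array was above every unirradiated array, and day-115 array 2 stood above all other arrays of the series. The difference was 1.58 ± 0.37 (log2 ± SE, n = 3 and 4, limma adjusted p = 0.00613) and stayed past the threshold without any single array. Adding the cluster term gave 0.62 ± 0.28 (adjusted p = 0.194). The probe set's suffix marks probes that may also bind related transcripts.

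At day 5 Jak3 was split by array cluster. Its signal was 293, 279 and 289 on the arrays of cluster 1, and 139, 105, 107, 141 and 143 on those of cluster 2. The cluster 1 arrays thus lay at the level of the 2 lower day-115 arrays, and the cluster 2 arrays overlapped the unirradiated hosts. At day 40 it was 311 and 156 in cluster 1, and 134 and 123 in cluster 2. All 4 day-40 arrays lay above all unirradiated arrays (0.55 ± 0.34, adjusted p = 0.441), where 13.8% of all probe sets did not overlap. Jak3 was higher at day 115 than at day 5 (1.00 ± 0.32, adjusted p = 0.0468), but that call was lost without day-115 array 1, 2 or 3 or any 1 of day-5 arrays 4 to 8. Without day-115 array 2 the difference was 0.67, and inside cluster 1 it was 0.32 ± 0.30 (adjusted p = 0.577; 1.29% of all probe sets were called there).

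Stat3, which cytokines of the interleukin-6 family activate most strongly, had 2 probe sets that moved alike at day 115. The probe set 99099_at gave 279, 288 and 305 at day 115, and 219, 158, 247 and 230.4 in unirradiated hosts. The groups did not overlap, and the difference was 0.43 ± 0.16 (adjusted p = 0.049), just under the threshold. It was lost without any 1 day-115 array, or without unirradiated array 1, 2 or 4, and was 0.41 ± 0.19 with the cluster term (adjusted p = 0.203). The probe set 99100_at gave 353, 369 and 400.3 at day 115, and 250 to 305 in 3 unirradiated arrays with 222 in the other. It differed by 0.50 ± 0.21 (adjusted p = 0.0829), again with no overlap. Neither probe set was called at day 5 or day 40.

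Stat5a and Stat5b encode the main STAT proteins of gamma-chain cytokines. They lie side by side in the genome and are close in sequence, so probes may not keep them apart. The Stat5a probe set 100423_f_at gave 272, 298 and 253 at day 115, and between 162 and 241 at day 5 (median 185). All 3 day-115 arrays were above all 8 day-5 arrays, as for 10.9% of all probe sets. The difference was 0.52 ± 0.13 (adjusted p = 0.0172), and 0.41 ± 0.13 with the cluster term (adjusted p = 0.0486). The call with the groups alone was lost without day-115 array 1 or 2. Inside cluster 1 the difference was 0.39 ± 0.17 (adjusted p = 0.224).

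The other Stat5a probe set, 100422_i_at, gave 372, 337 and 335 at day 115, and between 167 and 340.1 at day 5 (median 215). It rose by 0.62 ± 0.19 at day 115 against day 5 (adjusted p = 0.0401), with 1 day-5 array inside the day-115 range. The call was lost without any 1 day-115 array or any 1 of day-5 arrays 4 to 8, and the difference was 0.29 ± 0.14 with the cluster term (adjusted p = 0.171). Against unirradiated hosts 100422_i_at differed by 0.50 ± 0.22 at day 115 (adjusted p = 0.0931) and by -0.023 ± 0.18 with the cluster term (adjusted p = 0.948). For 100423_f_at it was 0.36 ± 0.15 (adjusted p = 0.0852), or 0.19 ± 0.17 with that term (adjusted p = 0.529), so neither was called. Stat5b was between 63.6 and 65.4 at day 115 and between 51.0 and 69.5 in unirradiated hosts, with a difference of 0.10 ± 0.13 (adjusted p = 0.562) that was -0.21 ± 0.10 with the cluster term (adjusted p = 0.247). It was not called in any comparison.

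Cish, the inhibitor that binds activated cytokine receptors and is known as a direct STAT5 target, was not called in any comparison. Its signal was 114, 87.0 and 125 at day 115, and 74.2, 82.0, 92.4 and 95.9 in unirradiated hosts, so the groups overlapped (0.28 ± 0.16, adjusted p = 0.193; with the cluster term -0.081 ± 0.14, adjusted p = 0.761). At day 5 it was 115, 138 and 134 on the arrays of cluster 1, and 87.3, 98.9, 87.5, 87.8 and 94.8 on those of cluster 2. The cluster 2 arrays lay in or near the unirradiated range, and the day-5 difference with the cluster term was 0.10 ± 0.10 (adjusted p = 0.827). Cish carries the pair of motifs shown above.

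Socs1, the inhibitor that binds JAK kinases directly, rose at day 115 with the groups alone. Its signal was 113, 207 and 143 at day 115, and 69.7, 67.5, 78.3 and 68.5 in unirradiated hosts. All day-115 arrays were above all unirradiated arrays, and array 2 was the highest of the 3. The difference was 0.94 ± 0.28 (adjusted p = 0.0194), but it was 0.72 without day-115 array 2 (adjusted p = 0.0939). The cluster term left 0.18 ± 0.20 (adjusted p = 0.602).

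At day 5, Socs1 was 187, 166 and 136 on the arrays of cluster 1, and 69.1, 93.7, 94.7, 99.4 and 103 on those of cluster 2. Of the cluster 2 arrays, 4 of 5 lay above all unirradiated arrays and 1 lay among them. The difference from unirradiated hosts inside cluster 2 was 0.30 ± 0.10 (adjusted p = 0.14; 2.37% of all probe sets were called there). At day 40 the signal was 155 and 125 in cluster 1, and 78.5 and 68.5 in cluster 2, the last 2 within or just above the unirradiated range.

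Socs2, known as a STAT5 target whose protein binds activated receptors such as that of growth hormone, was called at day 5 once the array cluster was taken into account. Its signal on the day-5 arrays of cluster 2 was 37.3, 54.3, 52.3, 48.2 and 57.8, against 33.5, 29.6, 27.4 and 31.4 in unirradiated hosts. All 5 were above all 4 unirradiated arrays, which are of the same cluster, as for 6.14% of all probe sets that did not overlap there. On the day-5 arrays of cluster 1 it was 31.7, 26.3 and 27.8, within or near the unirradiated range. With the groups alone the difference was 0.29 ± 0.14 (adjusted p = 0.355).

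With the cluster term the day-5 difference of Socs2 was 0.45 ± 0.09 (adjusted p = 0.0102), and inside cluster 2 it was 0.50 ± 0.09 (adjusted p = 0.0116). Over the 9 alternative settings tried, the adjusted p of Socs2 at day 5 ran from 0.0102 to 0.964. When 1 array at a time was left out, 11 of 12 fits with the term kept the call, with the exception of unirradiated array 3 (adjusted p = 0.0506), and 9 of 9 inside cluster 2 did. The signal was low, a mean of 34.6 over all arrays with the filter at 26.1. The difference therefore depends on the constant added before the logarithm, and with 64 in place of 16 it was 0.24 with the term (adjusted p = 0.0117).

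At day 40 Socs2 was 25.9 and 25.9 in cluster 1, and 30.4 and 35.5 in cluster 2. The day-5 arrays of cluster 1 were about as low, at 26.3 to 31.7. With the groups alone the difference of day 40 from day 5 was -0.33 ± 0.14 (limma adjusted p = 0.302). Under the cluster term it was -0.27 ± 0.08, and neither was called. Inside cluster 2, both day-40 arrays were below all 5 day-5 arrays, where 22.7% of all probe sets did not overlap, and the difference was -0.42 ± 0.11 (adjusted p = 0.0382; 5.59% of all probe sets were called there). At day 40 against unirradiated hosts it was 0.07 ± 0.11 inside cluster 2 (adjusted p = 0.847; 3.05% of all probe sets were called there). At day 115 the signal was 31.0, 29.0 and 38.4, which overlapped the unirradiated arrays, with a difference of 0.07 ± 0.17 (adjusted p = 0.796). The cluster term turned this into 0.51 ± 0.13 (adjusted p = 0.0362), a value that rests on the cluster difference seen at day 5 and day 40 being the same at day 115, which these arrays cannot show.

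Socs3, the inhibitor best known for acting on receptors of the interleukin-6 family, was read by 2 probe sets that differed from each other with the groups alone. The probe set 92232_at gave 151, 118 and 169 at day 115, and 76.4, 68.9, 76.8 and 77.8 in unirradiated hosts. All day-115 arrays were well above all unirradiated arrays. The difference was 0.82 ± 0.15 (adjusted p = 0.00179), which held without any single array, and was 0.55 ± 0.16 with the cluster term (adjusted p = 0.0525). Against day 5, where the signal ran from 70.0 to 120.0 (median 93.1), it rose by 0.59 ± 0.13 (adjusted p = 0.00883). With the term that rise was 0.42 ± 0.13 (adjusted p = 0.0349), and inside cluster 1 it was 0.41 ± 0.18 (adjusted p = 0.221). Without day-115 array 3 the adjusted p with the groups alone was 0.052.

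The other Socs3 probe set, 162206_f_at, gave 178, 153 and 183 at day 115, and 200.1, 167, 166 and 184 in unirradiated hosts. These overlapped, with a difference of -0.06 ± 0.33 (adjusted p = 0.909). Adding the cluster term gave 0.78 ± 0.26 (adjusted p = 0.0817). Inside cluster 2 it was 314, 223, 194, 313 and 354 at day 5, and 276 and 329 at day 40. The day-5 arrays overlapped the unirradiated arrays, since the 194 lay below the highest of these at 200.1. The differences from unirradiated hosts inside that cluster were 0.57 ± 0.16 at day 5 (adjusted p = 0.0997) and 0.70 ± 0.21 at day 40 (adjusted p = 0.0971), and neither passed. Its suffix marks probes shared by a family of sequences, and why the 2 probe sets differ was not tested.

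Pim1, a kinase gene that cytokines induce through STAT5, also had 2 probe sets. The probe set 104533_at gave 877, 495 and 929.9 at day 115, and 283, 282, 312 and 254 in unirradiated hosts. The groups did not overlap, and the difference was 1.34 ± 0.46 (adjusted p = 0.0372). The call was lost without day-115 array 1 or 3 or any 1 unirradiated array, and with the cluster term the difference was -0.037 ± 0.24 (adjusted p = 0.939). The probe set 99384_at gave 76.7, 58.7 and 91.9 at day 115 and between 51.1 and 59.4 in unirradiated hosts, and was not called (0.35 ± 0.16, adjusted p = 0.116; with the cluster term -0.049 ± 0.14, adjusted p = 0.861).

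At day 5 the probe set 104533_at gave 827, 1197 and 1027 in cluster 1, and 317, 433, 408, 453 and 396 in cluster 2. All 8 arrays were above all 4 unirradiated arrays, as for 3.45% of all probe sets, and it was the 1 member probe set of which that was so. The difference was 0.96 ± 0.37 with the groups alone (adjusted p = 0.259) and 0.47 ± 0.12 inside cluster 2 (adjusted p = 0.0622), so neither passed the threshold. At day 40 the signal was 840 and 865 in cluster 1, and 314 and 262 in cluster 2. Both cluster 2 arrays were below all day-5 arrays of that cluster, though the 314 was just below the lowest of these at 317. Of all probe sets 22.7% did not overlap there. The difference was -0.45 ± 0.15 (adjusted p = 0.0918), and the day-40 arrays of cluster 2 overlapped the unirradiated hosts.

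**Figure D2:**
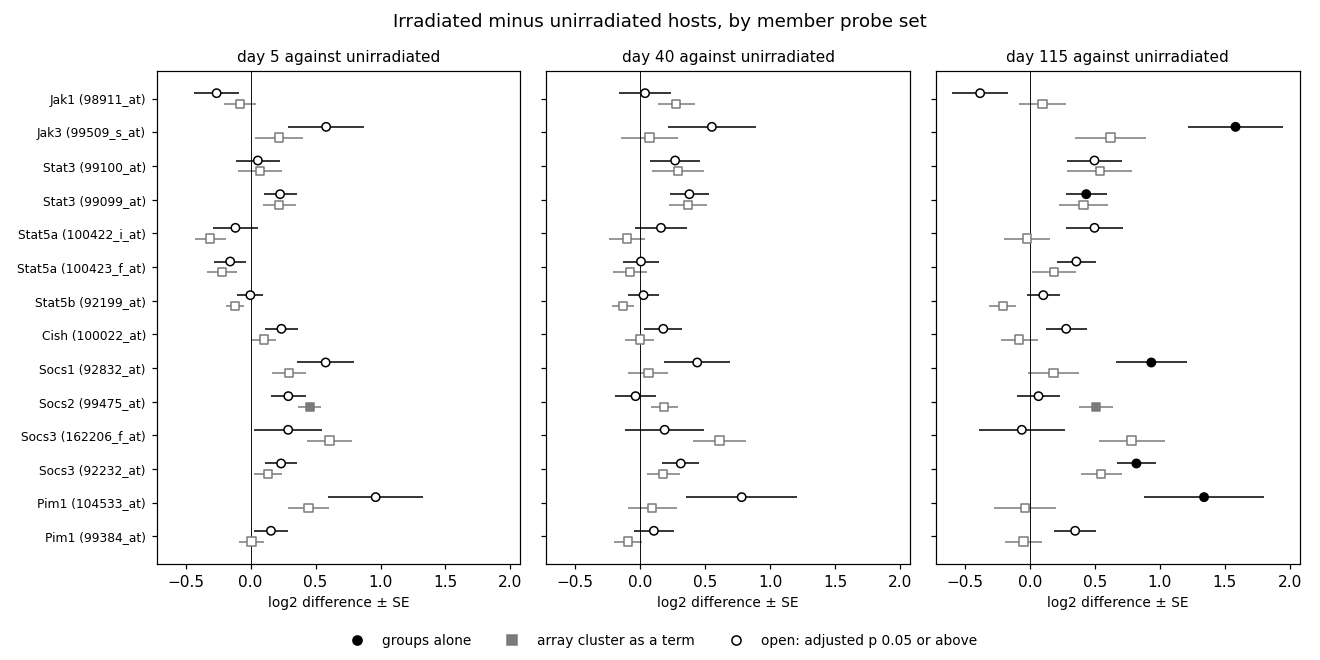
Log2 difference ± SE between each irradiated group and unirradiated hosts for the 14 member probe sets, from the fit with the groups alone (circles) and with the array cluster as a term (squares), filled where the limma adjusted p was under 0.05. At day 115 the circles of Jak3, Stat3 (99099_at), Socs1, Socs3 (92232_at) and Pim1 (104533_at) are filled, and among the squares that of Socs2 is filled at day 5 and at day 115.

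Much of the spread of these genes inside a group lay between the array clusters. Inside day 5, 8 of the 14 probe sets had all arrays of cluster 1 above all arrays of cluster 2, 2 had them below (Jak1 and Socs2) and 4 overlapped. Over all tested probe sets 47.6% did not overlap. The median size of the difference was 0.52 on the log2 scale for the members and 0.27 for all probe sets. Inside day 40, 7 were above, 3 below and 4 overlapped, where 63.6% of all did not overlap, and the medians were 0.24 and 0.23.

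The largest such difference among the members was that of Pim1 (104533_at), at 1.30 inside day 5 and 1.52 inside day 40. Jak3 differed by 1.09 and 0.72, and Socs1 by 0.73 and 0.80, in the same order of days. Socs3 split by probe set, with 0.28 and 0.26 for 92232_at and -0.75 and -1.03 for 162206_f_at. The clusters were found from these same values, so the differences are a description with no test. The transcripts of 16 immediate early genes, which respond fast to handling and stimulation, summed to 3523 to 5902 on the cluster 1 arrays of day 5 and 3135 to 5190 on those of cluster 2, and these ranges overlap. At day 115 the sum was 3249 to 3790, below the 4458 to 4751 of unirradiated hosts. With the groups alone 3 of the 16 fell (Egr1, Egr2 and Jund) and 1 rose (Ier3), where 27.9% of all probe sets were called. With the cluster term 3 fell and 0 rose, where 4.42% of all were called. The part of these transcripts in the day-115 differences was not tested.

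**Figure D3:**
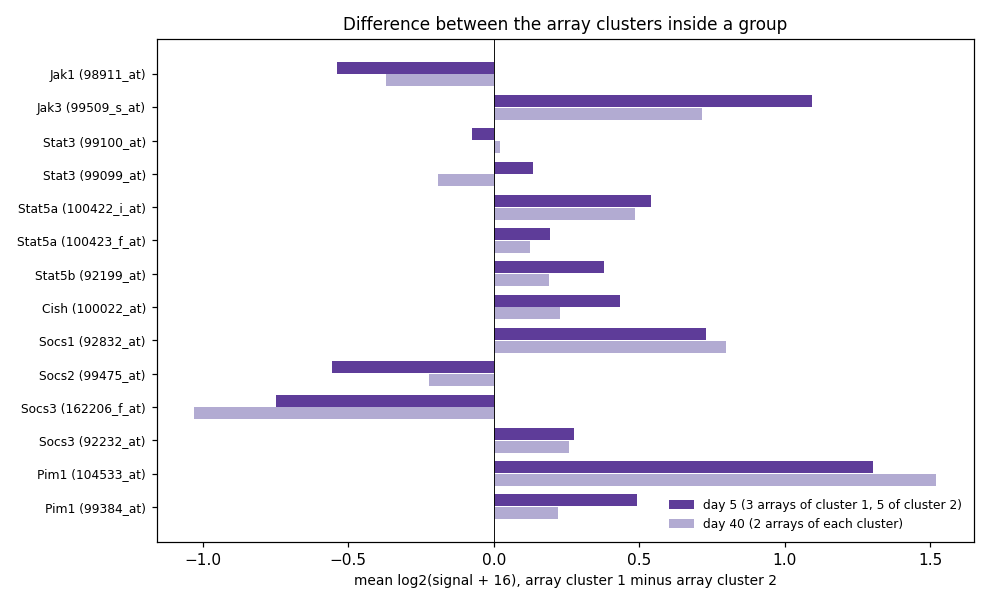
Mean log2(signal + 16) on arrays of cluster 1 minus that on arrays of cluster 2 for the 14 member probe sets, inside day 5 (dark bars) and inside day 40 (light bars). The bars of Pim1 (104533_at), Jak3 and Socs1 are the longest to the right, and those of Socs3 (162206_f_at) the longest to the left.

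Of 18 listed receptor chains that feed the pathway, 13 were tested. At day 115 against unirradiated hosts 8 rose and 1 fell, where 27.9% of all probe sets were called and 15.1% rose. At day 40 2 rose and 0 fell (1.48% of all called), and at day 5 0 rose and 1 fell (0.794% of all). Under the cluster term 1 rose at day 115 (4.42% of all called), 1 rose at day 40 (2.22%) and 1 fell at day 5 (1.59%). Inside cluster 2, 5 of the 13 rose at day 40 (3.05% of all called) and 1 fell at day 5 (2.37%). The median difference of the list was 0.52 at day 115 and 0.22 at day 5, where all probe sets had medians of 0.012 and 0.029.

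Il7r, the specific chain of the interleukin 7 receptor, was the chain that fell at day 5. Its signal was 787 ± 189 at day 5 (SD, n = 8) and 1775 ± 399 in unirradiated hosts (SD, n = 4), a difference of -1.17 ± 0.25 (adjusted p = 0.0346) that was -0.99 ± 0.22 with the cluster term (adjusted p = 0.0274). At day 40 it was 2240 ± 697 (SD, n = 4) and above day 5 by 1.47 ± 0.25 (adjusted p = 0.0054). Il4ra, the interleukin 4 receptor chain that also pairs with the gamma chain, rose at day 115 to 737 ± 82 (SD, n = 3), against 177 ± 34 in unirradiated hosts. The difference was 1.97 ± 0.30 (adjusted p = 0.00046). Under the cluster term it was 1.15 ± 0.19 (adjusted p = 0.00231). It was higher at day 40 too (1.17 ± 0.27, adjusted p = 0.0381). Ifnar2, a chain of the type I interferon receptor, rose at day 40, with a difference of 0.91 ± 0.22 (adjusted p = 0.0384). Under the cluster term this was 0.80 ± 0.22 (adjusted p = 0.0647). The interferon receptor chain Ifnar1 rose at day 115 by 1.43 ± 0.42 (limma adjusted p = 0.0198), but by 0.21 under the cluster term (adjusted p = 0.662). For Ifngr1, also an interferon receptor chain, the day-115 rise was 1.26 ± 0.31 (adjusted p = 0.00784), and 0.46 under the term (adjusted p = 0.254).

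Of the other 6 JAK and STAT genes, 4 were tested, and 1 rose at day 40 (1.48% of all probe sets were called) and at day 115 (27.9%). This was Stat4, which interleukin 12 activates. Its signal was 566 ± 86 at day 40 (SD, n = 4), 468 ± 44 at day 115 (SD, n = 3) and 195 ± 27 in unirradiated hosts (SD, n = 4). The day-40 difference was 1.46 ± 0.26 (adjusted p = 0.00591) and 1.20 ± 0.23 with the cluster term (adjusted p = 0.00635). The day-115 difference was 1.20 ± 0.28 (adjusted p = 0.0068). Under the cluster term it was 0.69 ± 0.29 (adjusted p = 0.171). None of the 4 was called at day 5.

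Of 20 other negative regulators 12 were tested, and none was called at day 5 or day 40 with the groups alone. At day 115, 2 rose and 3 fell with the groups alone, where 27.9% of all probe sets were called, and 0 were called with the cluster term, where 4.42% of all were. Inside cluster 2, 1 fell at day 5 (2.37% of all called) and 1 rose at day 40 (3.05%). Ptpn6, the phosphatase SHP-1, which acts on receptor complexes, rose by 1.13 ± 0.34 (adjusted p = 0.0198). The cluster term brought this to 0.23 ± 0.24 (adjusted p = 0.595). Ptprc, the phosphatase CD45, which can remove phosphate from JAK kinases, fell, with a difference of -1.43 ± 0.35 (adjusted p = 0.00878) that became -0.56 ± 0.29 under the cluster term (adjusted p = 0.257). Dusp6, a phosphatase of the ERK kinases, fell as well, at -0.88 ± 0.23 (adjusted p = 0.011), against -0.55 ± 0.26 under the cluster term (adjusted p = 0.214).

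Among 18 listed genes known as targets of STAT5 or of gamma-chain cytokines, 15 were tested. At day 115 4 rose and 2 fell (27.9% of all probe sets were called), at day 40 1 rose and 1 fell (1.48% of all), and at day 5 0 rose and 1 fell (0.794% of all). The cluster term gave counts of 1 and 0 at day 115 (4.42% of all called), 2 and 0 at day 40 (2.22%), and 0 and 1 at day 5 (1.59%). Inside cluster 2, 1 rose and 1 fell at day 5 (2.37% of all called), and 1 rose and 0 fell at day 40 (3.05%). The gene that fell at day 5 was Bcl6, a transcriptional repressor that STAT5 is known to hold down in T cells. Its signal was 26.8 ± 6.6 at day 5 (SD, n = 8) and 55.9 ± 15 in unirradiated hosts (SD, n = 4). The day-5 signal was thus low, close to the filter at 26.1, which limits the precision. The difference was -0.74 ± 0.13 (adjusted p = 0.00992). It was -0.67 ± 0.13 under the cluster term (adjusted p = 0.00966) and -0.72 ± 0.15 inside cluster 2 (adjusted p = 0.0284).

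Ccnd2, which encodes cyclin D2 of the first gap phase, was 228 ± 40 at day 115 (SD, n = 3) and 1400.5 ± 134 in unirradiated hosts (SD, n = 4). The difference was -2.55 ± 0.68 (adjusted p = 0.0121), yet -0.37 ± 0.23 under the cluster term (adjusted p = 0.349). Prf1, the pore-forming protein perforin, rose at day 40, with a difference of 0.79 ± 0.15 (adjusted p = 0.00834) and, under the cluster term, 0.72 ± 0.15 (adjusted p = 0.0106). Pim2, a relative of Pim1, rose at day 115, by 0.91 ± 0.22 (adjusted p = 0.0069), or 0.55 ± 0.23 under the cluster term (adjusted p = 0.164). Ccnd3, which encodes cyclin D3, rose at day 115 by 0.84 ± 0.20 (adjusted p = 0.00677) and with the term by 0.95 ± 0.23 (adjusted p = 0.0232). The target lists were drawn up with results of these arrays known, so their counts are a description.

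Over the 4 groups together, 2 member probe sets varied past the threshold by limma's F test, as did 15.3% of all probe sets. They were Socs3 (92232_at, adjusted p = 0.0087) and Jak3 (adjusted p = 0.0341). The genes whose signal followed Socs3 most closely over the 19 arrays were Fastk (r = 0.94), Padi2 (0.92), Ssbp4 (0.92), Kifc3 (0.91) and Tln1 (0.91). Those that followed Jak3 most closely were Ddx41, Trpc4ap, Itgb7, Ppp5c and Fkbp8, each with r = 0.96. The arrays share groups and clusters, so these correlations are a description.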

How the data were processed

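Each probe set has 1 deposited intensity on each array, on a linear scale from 7.68 to 13242.28. The authors' steps from scan to intensity are not given in the sources used here. Array medians ranged from 49.6 to 53.7, within 0.088 on the log2 scale, so no further normalization was applied. Of 12488 probe sets, 66 controls were left out, and 10833 of the other 12422 had 1 gene symbol.

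Differences were tested with limma 3.58.1 (R 4.3.3) on log2(signal + 16), in a single linear model of the 4 groups over 19 arrays with a variance trend. It covered the 8695 probe sets whose mean log2(signal + 16) exceeded the 30th percentile, equal to a signal of 26.1, and p-values were adjusted by Benjamini and Hochberg over all of them in each of 6 comparisons. An adjusted p under 0.05 was the threshold. The scale understates changes of low signals. The number of arrays limits the precision.

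Arrays were clustered by average linkage on 1 minus Pearson's r, after the values were seen. The members and all lists were chosen with earlier results of these data known. All member probe sets are described, and from each other list up to 3 called genes per comparison may be named. Other pseudocounts, filters, quantile normalization, the cluster term, a replicate block, moderation without a trend, fewer groups and leaving out each array were tried. The fit was also tested on simulated data, which held no array clusters, so that test cannot show how the fit behaves with them.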

Additional observations from a re-analysis of the deposited data

Results flagged for a closer look

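In 42 groups of 4 to 10 arrays, 2 member values stood apart from the rest of their group, where chance gives about 1 in 20. The Stat5a probe set 100423_f_at read 241 on day-5 array 1, against 192 on the next highest day-5 array. That gap was 0.579 of the range of the group, above the 95% limit of Dixon's test for 8 samples. The Socs3 probe set 92232_at read 68.9 on unirradiated array 2, against 76.4 on the next lowest unirradiated array, a gap of 0.849 of the range, also above that limit for 4 samples. The Socs3 rise at day 115 stayed past the threshold without that array.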

How the results depend on the processing

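With the pseudocount, the filter and the moderation changed, the counts of called member probe sets stayed within 1.5 times those reported. Quantile normalization gave 3 at day 115 against unirradiated hosts and 2 at day 115 against day 5. The array cluster as a term gave 1 at day 5 and 1 at day 115 against unirradiated hosts, and 2 at day 115 against day 5. Inside cluster 2 there was 1 at day 5 against unirradiated hosts and 1 at day 40 against day 5, and inside cluster 1 there were 0 at day 115 against day 5. With the 2 groups compared alone, 2 were called at day 115 against day 5. The cause of these shifts was not tested, though fits inside a cluster hold fewer arrays. Leaving out 1 array at a time gave 3 to 4 calls at day 115 against unirradiated hosts, 1 to 5 at day 115 against day 5, and 0 in the other 4 comparisons. The day-115 difference of Pim1 (104533_at) turned to -0.037 with the cluster term. Over their alternatives, the adjusted p at day 115 against unirradiated hosts ran from 0.000388 to 0.194 for Jak3, 0.000812 to 0.0525 for Socs3 (92232_at), 0.00174 to 0.602 for Socs1, 0.0281 to 0.203 for Stat3 (99099_at) and 0.000739 to 0.939 for Pim1 (104533_at).

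The replicate numbers were not taken to pair the arrays, since 8 of 21 same-numbered pairs had deviations that correlated above 0.1, with r from -0.67 to 0.76. With the replicate block, 3 member probe sets were called at day 5 against unirradiated hosts (Jak3, Socs1 and Pim1) and 0 at day 115 against day 5. Day-5 arrays 5 to 8 share their numbers with no other group, so that day-5 difference rests on day-5 arrays 1 to 4. Of these, arrays 1 to 3 are of cluster 1, whereas all unirradiated arrays are of cluster 2. These calls therefore cannot be told apart from the cluster difference. Over all probe sets, the counts ran from 40 to 1707 at day 5 (69 reported), 111 to 410 at day 40 (129), 384 to 3217 at day 115 (2424), 1 to 646 at day 40 against day 5 (110), 112 to 1865 at day 115 against day 5 (1202) and 0 to 63 at day 115 against day 40 (8). The low signal of Socs2 limits its precision, and a filter at the 50th percentile leaves it out. The checks of Socs2 inside a cluster were chosen after the data were seen.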
